A study of Rattus norvegicus with 6 samples.

Results

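The genes described here are Gria1, Gria2, Gria3 and Gria4, which encode GluA1 to GluA4, the pore-forming subunits of the AMPA-type glutamate receptor (AMPAR). All probe sets that the platform annotation assigns to 1 of these symbols were taken, whatever their brightness, which gave 8 probe sets of 31042 on the array: 1 for Gria1, 2 for Gria2, 2 for Gria3 and 3 for Gria4. Each probe set sums up several short probes against a transcript region in a single log2 number per array, on which 1 unit is a doubling. mRNA was measured on 6 Affymetrix rat arrays, 2 from retinal ganglion cell neurons (RGCs) given glypican 4 protein for 12 hours (Gpc4), 2 from RGCs given thrombospondin 1 protein for 12 hours (TSP1) and 2 from untreated RGCs (Alone). All groups were rat neurons purified at postnatal day 6 by binding to antibody-coated dishes and grown for 12 days in medium with BDNF and CNTF, and each array held RNA of 2 pooled wells from 1 of 2 separate cultures. The methods add forskolin to this medium. Arrays labelled replicate 1 were taken as the first culture and those labelled replicate 2 as the second, which the labels do not state. The Gpc4 protein was purified from what HEK293 cells, a line from human embryonic kidney, had secreted, and no array received a protein prepared the same way without Gpc4, so the effects of Gpc4 and of anything carried with it cannot be told apart.

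AMPARs carry most of the fast excitatory current at synapses of the central nervous system. Each receptor is an assembly of 4 subunits, and the subunits present set how it conducts: GluA2 is edited at the RNA level at a single site in the pore, and receptors that hold edited GluA2 pass little calcium. GluA1, GluA3 and GluA4 are not edited at that site. The tails of the subunits inside the cell bind different anchoring proteins, and GluA1 is the subunit whose recruitment to synapses has been studied most closely during plasticity. Astrocyte-secreted Gpc4 is known as a factor that brings AMPARs to the surface of RGCs, and TSP1 as one that induces synapses lacking them. The arrays address whether the subunit mRNAs themselves differ after 12 hours with either protein.

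None of the 8 probe sets passed the test with Gpc4 or with TSP1, or when Gpc4 was compared directly with TSP1. Gria1 was close to level in all 3 conditions. Both Gria2 probe sets had their lowest mean with Gpc4 and their highest in Alone, as did the brighter Gria3 and the dimmest Gria4 probe set. How often this order occurs over all probe sets was not counted. The 3 Gria4 probe sets did not move together. The differences from Alone lay between -0.38 and 0.32 on the log2 scale, and none exceeded the spread between arrays by enough to pass once p-values were adjusted over the whole array.

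Groups were compared with limma, a linear model that borrows information on the spread from the whole array, with 1 mean per group and all 6 arrays in the fit. Tests were two-sided. After Benjamini-Hochberg adjustment over 31042 probe sets, those with an adjusted p under 0.05 were called. Between Gpc4 and Alone, 0 of the 8 probe sets were called (limma, adjusted p from 0.55 to 0.99), where 0.0838% of all probe sets were, and 2 of 8 had an unadjusted p under 0.05, where 6.88% of all probe sets did. Between TSP1 and Alone, 0 of 8 were called (limma, adjusted p from 0.985 to 0.988) where 0% of all were, and 1 of 8 had an unadjusted p under 0.05, where 4.4% of all did. In the third comparison, of Gpc4 against TSP1, 0 of 8 were called (limma, adjusted p from 0.90 to 0.995), where 0.0612% of all were, and 2 of 8 had an unadjusted p under 0.05, where 4.51% of all did. A miss at this number of arrays does not show that levels were equal, so the 95% interval of each difference is given below. Over the 8 probe sets these intervals ran from -0.63 to 0.31 for Gpc4 against Alone, a range of 0.648-fold to 1.24-fold, and from -0.35 to 0.64 for TSP1 against Alone, a range of 0.784-fold to 1.56-fold.

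**Figure D1:**
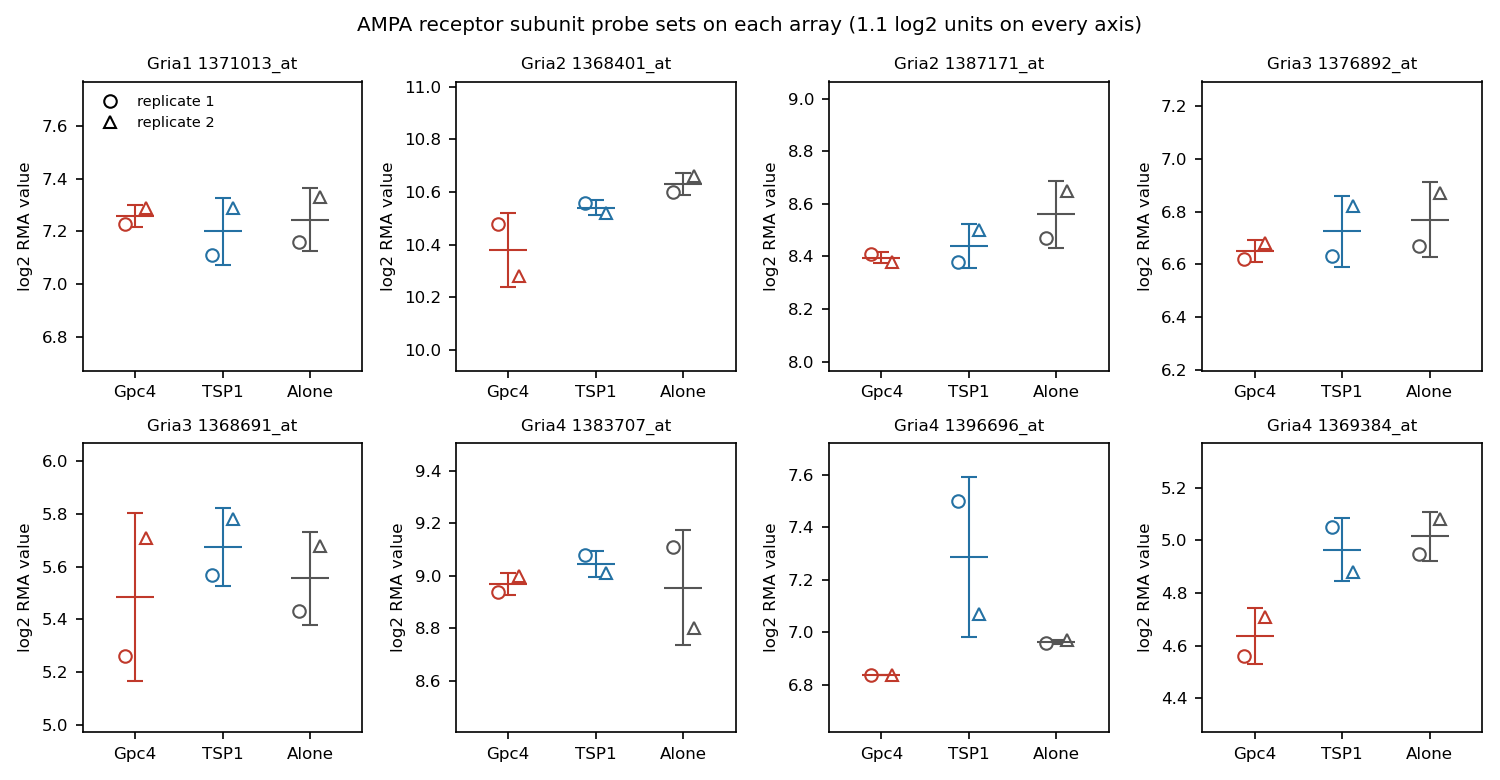
Log2 RMA value (y axis, 1.1 log2 units on each) of the 8 AMPA receptor subunit probe sets in Gpc4, TSP1 and Alone (x axis). Circles are replicate 1, triangles replicate 2, horizontal lines the means and bars the SD (n = 2); the brighter Gria2 probe set stands at 10.48 and 10.28 with Gpc4, below both Alone arrays, while Gria1 overlaps in all groups.

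The labelled cell type was checked first, since bulk RNA gives the sum over all cells in a well, and fewer cells of a type and less RNA per cell cannot be told apart. Of 11 listed RGC markers 9 were measured, and all 9 lay above the array median on every array, with Alone means from 7.91 for Pou4f1 to 14.00 for Sncg. Pou4f2 and Pou4f3 have no named probe set here. Other retinal cells express AMPAR subunits too, and of their markers 4 of 8 measured for amacrine and horizontal cells, 1 of 4 for bipolar cells and 0 of 3 for photoreceptors were above the median throughout. For the astrocyte and Müller glia list it was 3 of 7, for the oligodendrocyte lineage 1 of 5, for microglia 1 of 6, for endothelial cells 1 of 4 and for fibroblasts 2 of 6. The summed linear signal of the endothelial list was 278.9 to 300.9 with Gpc4, 155.6 to 157.4 with TSP1 and 162.1 to 207 in Alone. Of its 4 genes Kdr, the only one above the median throughout, differed by 0.83 on the log2 scale between Gpc4 and Alone, and the others, with Alone means from 3.44 to 4.37, differed by 0.22 (Pecam1), 0.075 (Tek) and -0.13 (Cldn5). The sum of the oligodendrocyte lineage list was 382.3 to 471.5 with Gpc4, 327.2 to 360.6 with TSP1 and 374.6 to 500.1 in Alone. With TSP1 Pdgfra differed by -1.35 on the log2 scale, Mbp by 0.04, Mog by -0.025, Olig1 by -0.065 and Olig2 by -0.1. The sum of the glia list was 1905 to 2154 with Gpc4, 1690 to 1884 with TSP1 and 1390 to 1945 in Alone. Its brightest genes, Glul and Gja1 (Alone means 9.885 and 8.585), differed by 0.395 and 0.295 with Gpc4. Of the others Gfap differed by 0.305, Aldh1l1 by 0.15, Slc1a3 by 0.085, Rlbp1 by 0.035 and Aqp4 by -0.115. For the fibroblast list the sum was 419 to 645.7 with Gpc4, 288.4 to 502.9 with TSP1 and 340.3 to 831.8 in Alone. Of that list, Lum differed by -1.635 with TSP1, Dcn by -1.49, Col3a1 by -0.37, Col1a2 by -0.125, Col1a1 by 0.035 and Pdgfrb by 0.02. No member of these lists was called, and the part of these shifts in the AMPAR values was not tested. The RGC list had sums of 59800 to 60420 with Gpc4, 59390 to 60840 with TSP1 and 59400 to 61660 in Alone.

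Gria1 encodes GluA1, a subunit whose intracellular tail is phosphorylated by several synaptic kinases. Its only probe set, 1371013_at, read 7.23 and 7.29 with Gpc4, 7.11 and 7.29 with TSP1, and 7.16 and 7.33 in Alone. The values of the 3 groups overlapped, and in TSP1 and Alone the second array was the higher by more than any group mean differed from another. The log2 fold change was 0.015 with Gpc4 (standard error 0.10, 95% interval -0.23 to 0.26, adjusted p = 0.99 from limma), which is 1.01-fold with an interval of 0.853-fold to 1.20-fold. It was 0.07 in the first culture and -0.04 in the second. With TSP1 it was -0.045 (95% interval -0.29 to 0.20), -0.05 in the first culture and -0.04 in the second. Gpc4 against TSP1 gave 0.06 (95% interval -0.18 to 0.30). Of all probe sets, 91.9% differed by at least as much between Gpc4 and Alone as Gria1 did.

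Gria2 encodes GluA2, the edited subunit that limits calcium entry. Its brighter probe set, 1368401_at, read 10.48 and 10.28 with Gpc4, 10.56 and 10.52 with TSP1, and 10.60 and 10.66 in Alone. Both Gpc4 arrays lay below both TSP1 arrays, and these below both Alone arrays, with the second Gpc4 array the lowest of all. The log2 fold change with Gpc4 was -0.25 (standard error 0.10, 95% interval -0.48 to -0.02), or 0.841-fold, with an unadjusted p of 0.036 and an adjusted p = 0.72 from limma. The first culture gave -0.12 and the second -0.38. Of all probe sets, 8.54% differed by at least this much.

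The second Gria2 probe set, 1387171_at, read 8.41 and 8.38 with Gpc4, 8.38 and 8.50 with TSP1, and 8.47 and 8.65 in Alone. Again both Gpc4 arrays were below both Alone arrays, but they overlapped with TSP1. The log2 fold change with Gpc4 was -0.165 (95% interval -0.40 to 0.066, adjusted p = 0.79 from limma), with -0.06 in the first culture and -0.27 in the second. Thus the 2 probe sets of Gria2 had the same sign in each culture, and in both the second culture had the larger difference. With TSP1 the log2 fold changes of the brighter and the dimmer probe set were -0.09 and -0.12 (adjusted p = 0.99 from limma for each), and both cultures were lower for both. The 2 comparisons share the Alone arrays, so a high Alone value lowers both. In Gpc4 against TSP1, a comparison without those arrays, the brighter probe set differed by -0.16 (95% interval -0.39 to 0.069), or by -0.06 without the second Gpc4 array, and the dimmer by -0.045 (95% interval -0.28 to 0.19).

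Gria3 encodes GluA3, which assembles mostly with GluA2. Its brighter probe set, 1376892_at, read 6.62 and 6.68 with Gpc4, 6.63 and 6.82 with TSP1, and 6.67 and 6.87 in Alone. The groups overlapped, and the second array was the higher in every group. The log2 fold change was -0.12 with Gpc4 (95% interval -0.37 to 0.13, adjusted p = 0.87 from limma) and -0.045 with TSP1 (95% interval -0.30 to 0.21). The other Gria3 probe set, 1368691_at, read 5.26 and 5.71 with Gpc4, 5.57 and 5.78 with TSP1, and 5.43 and 5.68 in Alone. These values lay below the array median, 5.96 to 5.99, on all 6 arrays, and no detection calls came with the values, so a signal over background cannot be shown for it, and its differences can understate a change in mRNA. This probe set had the widest intervals of the 8, with a log2 fold change of -0.07 with Gpc4 (95% interval -0.45 to 0.31) and 0.12 with TSP1 (95% interval -0.26 to 0.50). The replicate SDs were 0.32 with Gpc4, 0.15 with TSP1 and 0.18 in Alone (n = 2 each).

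Gria4 encodes GluA4, a subunit with fast kinetics that is prominent in auditory and cerebellar circuits and in some interneurons. The brightest of its 3 probe sets, 1383707_at, read 8.94 and 9.00 with Gpc4, 9.08 and 9.01 with TSP1, and 9.11 and 8.80 in Alone. The 2 Alone arrays were the lowest and the highest of the 6. The log2 fold change was 0.015 with Gpc4 (95% interval -0.26 to 0.29, adjusted p = 0.99 from limma), with -0.17 in the first culture and 0.20 in the second. With TSP1 it was 0.09 (95% interval -0.18 to 0.36).

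The Gria4 probe set 1396696_at read 6.84 on both Gpc4 arrays, 7.50 and 7.07 with TSP1, and 6.96 and 6.97 in Alone. The groups did not overlap, with Gpc4 the lowest and TSP1 the highest, and the first TSP1 array stood well above the other 5. The log2 fold change was -0.125 with Gpc4 (95% interval -0.44 to 0.19, adjusted p = 0.90 from limma) and 0.32 with TSP1 (95% interval 0.0004 to 0.64, unadjusted p of 0.0498, adjusted p = 0.985 from limma). The TSP1 difference was 0.54 in the first culture and 0.10 in the second, and without the first TSP1 array it was 0.105. Gpc4 against TSP1 gave -0.445 (95% interval -0.76 to -0.13, unadjusted p of 0.0127, adjusted p = 0.90 from limma), and -0.23 without that array.

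The dimmest Gria4 probe set, 1369384_at, read 4.56 and 4.71 with Gpc4, 5.05 and 4.88 with TSP1, and 4.95 and 5.08 in Alone. Both Gpc4 arrays were below the other 4, but all 6 values lay below the array median, so that here too a signal over background cannot be shown. It had the lowest unadjusted p of the 8 probe sets, with a log2 fold change with Gpc4 of -0.38 (standard error 0.11, 95% interval -0.63 to -0.13, unadjusted p of 0.0077, adjusted p = 0.55 from limma). The cultures gave -0.39 and -0.37. With TSP1 it was -0.05 (95% interval -0.30 to 0.20), and between Gpc4 and TSP1 -0.33 (95% interval -0.58 to -0.083, adjusted p = 0.94 from limma). For Gria4, then, the 2 dimmer probe sets had lower means with Gpc4 and the brightest did not, and which transcripts each of them reads is not given in the sources used here.

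**Figure D2:**
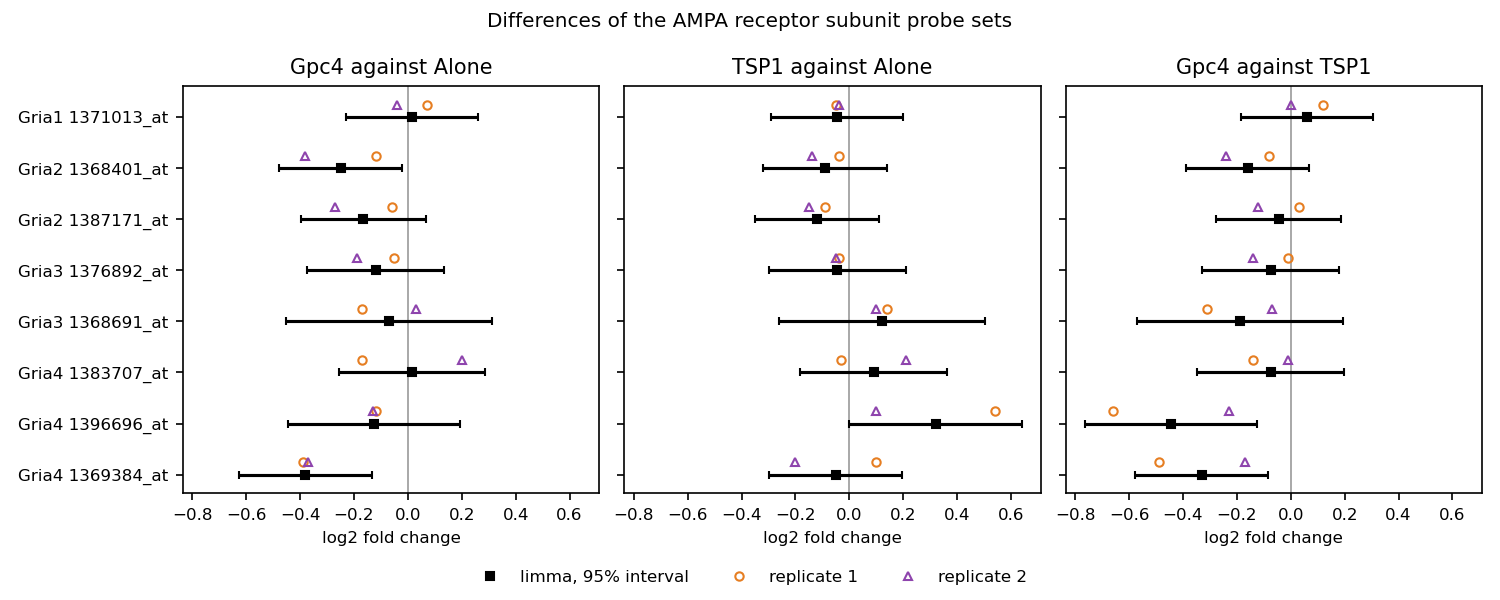
Log2 fold change (x axis) of each AMPA receptor subunit probe set (rows) in the 3 comparisons, each named above its panel. Squares are limma estimates with 95% intervals, circles the difference in replicate 1 and triangles that in replicate 2; for Gpc4 against Alone 6 of 8 squares lie below 0, and the lowest, -0.38, is the dimmest Gria4 probe set.

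Taken over the 8 probe sets, 6 had a lower mean with Gpc4 than in Alone and 2 a higher one, with a median log2 fold change of -0.12, beside -0.005 over all probe sets. The difference had the same sign in both cultures for 5 of 8, a share that was not counted over all probe sets. The arrays of the 2 groups did not overlap for 4 of 8, where this held for 35% of all probe sets. With TSP1 5 of 8 were lower than in Alone and 3 higher, with a median of -0.045 beside -0.005 over all, and 2 of 8 did not overlap, where 29.8% of all did not. Against TSP1, 7 of 8 were lower with Gpc4, with a median of -0.12 beside -0.005 over all, and 4 of 8 did not overlap, where 30.2% of all did not. Probe sets assigned to 1 gene, measured on the same arrays, were not treated as independent of each other.

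When the log2 values of a gene's probe sets were averaged and limma was run on genes, none of the 4 was called in any comparison. With Gpc4 the log2 fold changes were 0.015 for Gria1, -0.21 for Gria2, -0.095 for Gria3 and -0.16 for Gria4 (adjusted p from 0.68 to 0.99 from limma). With TSP1 they were -0.045 for Gria1, -0.105 for Gria2, 0.038 for Gria3 and 0.12 for Gria4 (adjusted p from 0.97 to 0.985 from limma).

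The 2 arrays of a condition come from different cultures, and part of the spread above follows the replicate number, taken here as the culture. With the replicate number as a term in the fit, 0 of 8 probe sets were called between the second and the first culture, where 0.561% of all were, and 1 of 8 had an unadjusted p under 0.05, where 11.3% of all did. That one was the dimmer Gria3 probe set, higher in the second culture by 0.30 (95% interval 0.12 to 0.49, adjusted p = 0.23 from limma), with 0.45 in Gpc4, 0.21 in TSP1 and 0.25 in Alone. The brighter Gria3 probe set was higher by 0.15 and Gria1 by 0.14, also with the same sign in all 3 conditions, so 3 of 8 probe sets were higher in the second culture throughout, where 13.9% of all were. For these 3, picked for their culture difference, it was larger than the difference between Gpc4 and Alone. In size this also held for Gria4 1383707_at (-0.107 beside 0.015) and Gria4 1396696_at (-0.14 beside -0.125). It did not hold for either Gria2 probe set or the dimmest Gria4 probe set. With this replicate block, 0 of 8 probe sets were called with Gpc4, where 0.206% of all were, 0 of 8 with TSP1, where 0.0129% of all were, and 0 of 8 between Gpc4 and TSP1, where 0.258% of all were. The interval of Gria1 with Gpc4 then was -0.19 to 0.22, that of the brighter Gria2 probe set -0.475 to -0.025 and that of the dimmest Gria4 probe set -0.63 to -0.13 (adjusted p = 0.36 from limma).

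Because the balance of GluA2 with the other subunits sets calcium permeability, Gria2 was also compared with each other gene on the same array. The log2 value of the brightest probe set of the other gene was taken from that of Gria2. An equal shift of all values of an array leaves this difference unchanged. Binding differs from probe set to probe set, so the size of this difference is not a ratio of mRNAs, and only its change between groups is read. Gria2 minus Gria1 was 3.25 and 2.99 with Gpc4, 3.45 and 3.23 with TSP1, and 3.44 and 3.33 in Alone. Both Gpc4 arrays were below both Alone arrays, with a change of -0.265 (exact permutation test, two-sided, p = 0.333, the smallest that 2 against 2 arrays allow). Gria2 minus Gria3 was 3.86 and 3.60 with Gpc4, 3.93 and 3.70 with TSP1, and 3.93 and 3.79 in Alone, and the arrays of the groups overlapped (change with Gpc4 of -0.13, exact permutation p = 0.667). These tests do not use the pairing by culture. Within cultures, Gpc4 minus Alone was -0.19 in the first and -0.34 in the second for Gria1, and -0.07 and -0.19 for Gria3. Gria2 minus Gria4 was 1.54 and 1.28 with Gpc4, 1.48 and 1.51 with TSP1, and 1.49 and 1.86 in Alone, with overlap again (change with Gpc4 of -0.265, exact permutation p = 0.667), and within cultures Gpc4 minus Alone was 0.05 in the first and -0.58 in the second. With TSP1 the 3 changes against Alone were -0.045 for Gria1, -0.045 for Gria3 and -0.18 for Gria4 (exact permutation p from 0.667 to 1). With means over the probe sets of at least 6, the last of these was -0.31 and both TSP1 arrays were below both Alone arrays (exact permutation p = 0.333). No such test can pass 0.05 in this design.

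**Figure D3:**
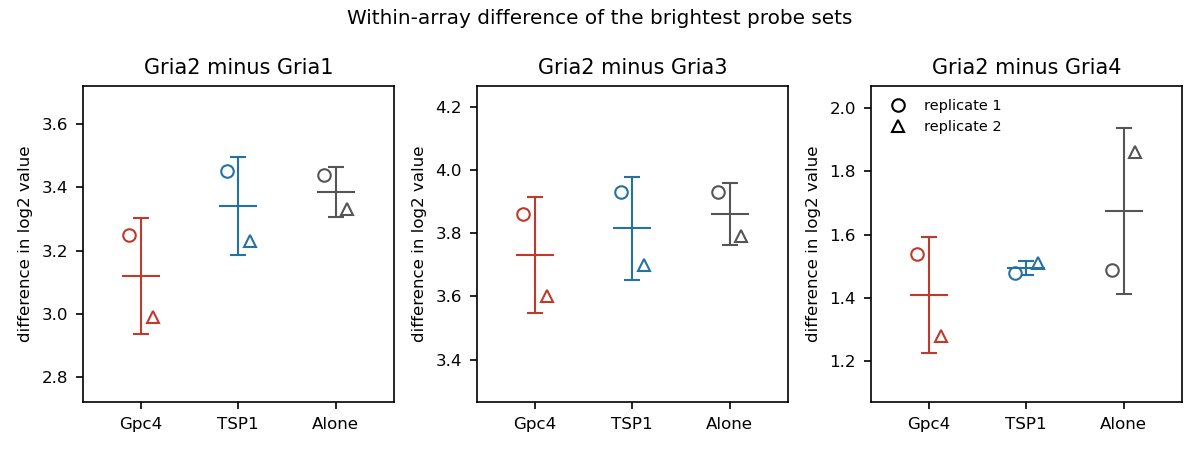
Difference in log2 value (y axis) between the brightest probe set of Gria2 and that of Gria1, Gria3 or Gria4 on the same array, in Gpc4, TSP1 and Alone (x axis). Circles are replicate 1, triangles replicate 2, lines the means and bars the SD (n = 2); for Gria1 the Gpc4 arrays at 3.25 and 2.99 lie below the Alone arrays at 3.44 and 3.33.

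The receptor needs partner proteins, and their genes were counted on the same fit with 1 probe set per gene, the brightest. AMPAR auxiliary subunits and clustering factors include the TARPs (Cacng genes) and cornichons, which escort the receptor, and the pentraxins, which gather it from outside the cell. Of 19 listed genes 16 were measured. None was called with Gpc4 or with TSP1. An unadjusted p under 0.05 was reached by 5 of 16 with Gpc4, in both directions, where 6.88% of all probe sets did. With TSP1 1 of 16 reached it, where 4.4% of all did. The median log2 fold change of the list was -0.02 with Gpc4 and -0.075 with TSP1, beside -0.005 over all probe sets in each. The smallest p with Gpc4 belonged to Syndig1, which encodes a transmembrane partner of AMPARs, with a mean of 7.66 with Gpc4 and 6.82 in Alone (log2 fold change 0.84, limma adjusted p = 0.053, and 0.031 with the replicate block), and to Nptx1, the gene of neuronal pentraxin 1, with 12.19 with Gpc4 and 11.31 in Alone (0.88, limma adjusted p = 0.079, and 0.033 with the replicate block). With TSP1 it belonged to Cacng3, a TARP, with 7.21 with TSP1 and 7.53 in Alone (-0.32, adjusted p = 0.985 from limma), and to Shisa9, an auxiliary subunit, with 5.91 with TSP1 and 6.20 in Alone (-0.295, adjusted p = 0.985 from limma). Cacng3 and Shisa9 were lower with Gpc4 too (-0.53 and -0.22, adjusted p = 0.46 and 0.81 from limma), against the same Alone arrays. Syndig1 was higher with Gpc4 than with TSP1, at 7.66 with Gpc4 and 6.74 with TSP1 (0.92, adjusted p = 0.044 from limma). It was no longer called when any 1 of the 6 arrays was left out. Nptx1 had 0.96 in that comparison (limma adjusted p = 0.068, and 0.021 with the replicate block).

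In the list of AMPAR trafficking and anchoring, which holds scaffolds, kinases and sorting factors, 21 of 22 genes were measured and none was called in any comparison. The median was -0.015 with Gpc4 and -0.015 with TSP1. The smallest p with Gpc4 belonged to Prkca, a protein kinase C (0.255, adjusted p = 0.66 from limma), and to Camk2a, a calcium-dependent kinase of the synapse (-0.275, adjusted p = 0.72 from limma). With TSP1 it belonged to Camk2b (-0.155), another subunit of that kinase, and to the scaffold gene Dlg3 (-0.18), each with an adjusted p = 0.985 from limma. In Gpc4 against TSP1 it belonged to Camk2a (-0.24) and Prkca (0.175), each with an adjusted p = 0.995 from limma.

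Of 12 genes for RNA editing and mRNA regulation, among them the adenosine deaminases that edit the Gria2 transcript, 10 were measured and none was called. The median was -0.03 with Gpc4 and 0.01 with TSP1. Fmr1, whose protein binds neuronal mRNAs and restrains their translation, had the smallest p with both proteins, at 7.53 with Gpc4, 7.60 with TSP1 and 7.14 in Alone (log2 fold changes of 0.39 and 0.46, adjusted p = 0.65 and 0.985 from limma), in comparisons that share the Alone arrays. The next were Nova2, a splicing factor (0.17 with Gpc4, adjusted p = 0.82 from limma), and Adarb2, a member of the deaminase family (-0.165 with TSP1, adjusted p = 0.985 from limma). In Gpc4 against TSP1 they were Nova2 (0.15) and Adarb2 (0.115), each with an adjusted p = 0.995 from limma.

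Of 14 subunit genes of NMDA, kainate and delta receptors, the other ionotropic glutamate receptors, 13 were measured and none was called. Their median was 0.01 with Gpc4 and -0.03 with TSP1, beside -0.05 and -0.045 for the AMPAR genes when these too were taken by their brightest probe set, and -0.12 and -0.045 over all 8 AMPAR probe sets. The smallest p with Gpc4 belonged to Grik5, a kainate receptor subunit (-0.215, adjusted p = 0.72 from limma), and Grin2b, an NMDA receptor subunit (0.275, adjusted p = 0.78 from limma). With TSP1 it belonged to Grin2d (-0.19) and Grik1 (0.14), each with an adjusted p = 0.985 from limma, and between Gpc4 and TSP1 to Grin2d (0.275) and Grin2b (0.295), each with an adjusted p = 0.995 from limma. Of the genes named from these lists, Prkca, Nova2, Adarb2 and Grin2d had all 3 group means below the array median, and Shisa9 its TSP1 mean.

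**Figure D4:**
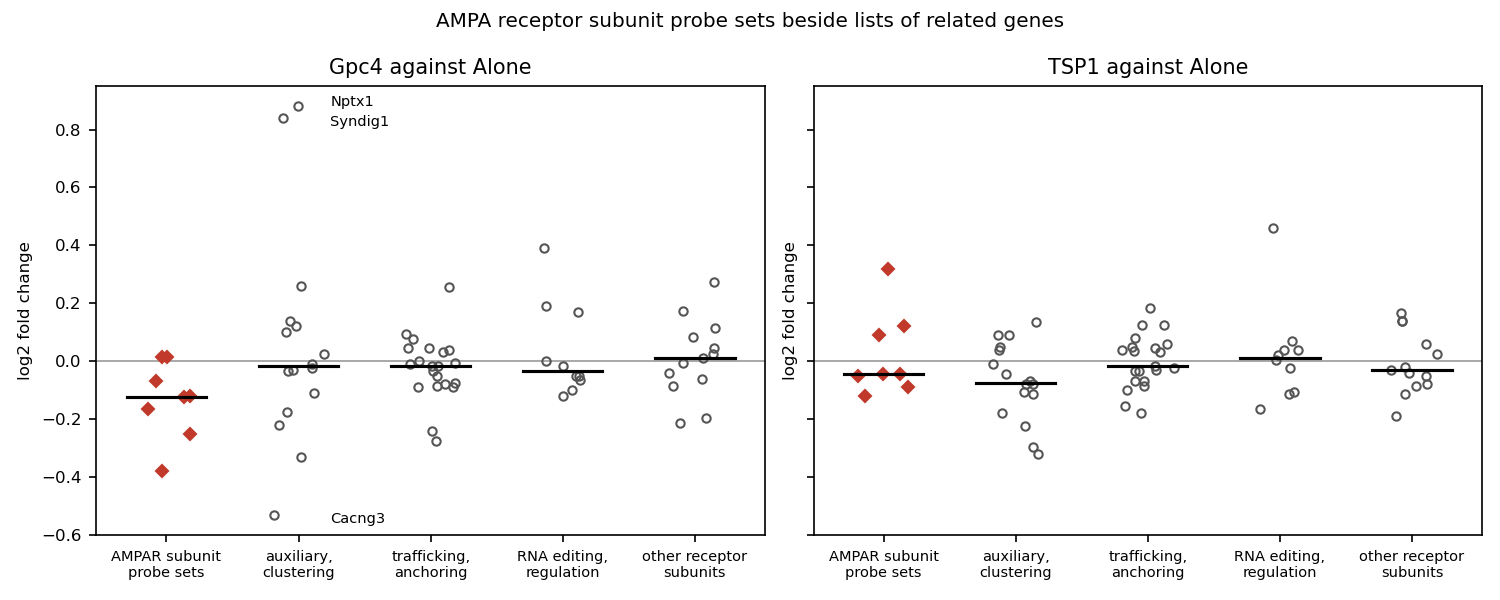
Log2 fold change (y axis) with Gpc4 and with TSP1, each against Alone, of the 8 AMPA receptor subunit probe sets (diamonds) and of the genes of 4 lists (open circles), with bars at the medians. With Gpc4 the AMPAR probe sets lie between -0.38 and 0.015, while Nptx1 at 0.88 and Syndig1 at 0.84 stand above all others shown and Cacng3 at -0.53 below.

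For each gene the brightest probe set was also set against 2672 named probe sets with a mean log2 value of at least 8 and an SD of at least 0.1 over the arrays, by Pearson r over the 6 arrays. These arrays share cultures and scaling, and this is a description only. Genes picked for likeness over these arrays will tend to have like group and culture differences, so the differences given for them add no support. Nearest to Gria2 were Mfhas1 (r = 0.99), Zfp318 (r = 0.99) and Bdnf (r = 0.99), which encodes brain-derived neurotrophic factor, and 47 probe sets had r over 0.95. Their log2 fold changes with Gpc4 were -0.415, -0.27 and -0.25, beside -0.25 for Gria2. Nearest to Gria1 were Eef1d, Acot8 and Sde2 (r from 0.98 to 0.99), each of which was higher in the second culture, by 0.18, 0.22 and 0.18. Nearest to Gria3 were Pex14, Fam171b and Maneal (r of 0.96 for each), also higher in the second culture, by 0.16, 0.39 and 0.14. Nearest to Gria4 were Celf1, Antxr2 and Hnrnpa1 (r from 0.90 to 0.93), and no probe set had r over 0.95 with it.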

How the data were processed

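Scans were turned into values by the authors in Expression Console from Affymetrix, whose version is not given in the sources used here. The deposited table holds these as log2 RMA values, normalized between arrays, with 2 decimals. RMA includes quantile normalization, which removes any change shared by all mRNAs. All 6 arrays entered, and no filter or pseudocount was applied. Precision is limited by the small number of arrays. Symbols came from the platform annotation, in which 20826 probe sets have 1 symbol, 436 several and 9780 none. The 4 member symbols match the RefSeq gene table. Listed genes without a named probe set were not analysed here.

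Groups were compared with limma 3.58.1 under R 4.3.3 (functions lmFit and eBayes, 3 residual degrees of freedom). The script was tested on simulated data. Members and lists were chosen with earlier results of these data known. From the lists, genes past the threshold and, per list and comparison, the 2 with the smallest p were named; for likeness, the 3 nearest genes. The methods state 2 cultures, and the distances from the group means of arrays with 1 number correlated at 0.29 (Gpc4 and Alone), 0.349 (TSP1 and Alone) and 0.374 (Gpc4 and TSP1) across probe sets, so the replicate number was taken to pair arrays. Alternatives were the replicate block, quantile normalization, median centring, a filter that keeps mean log2 values of at least 6, and only the compared groups. Others were a trended variance, a t-test, a mean over probe sets and leaving out each array. The methods name a t-test for pairwise comparisons in general and no test for the arrays. Figures used matplotlib 3.10.9 in Python 3.11.15.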

Additional observations from a re-analysis of the deposited data

How the results depend on the processing

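None of the 8 AMPAR probe sets was called in any comparison under the alternatives run with limma, including the replicate block, which left the count at 0 for each, and the block with a mean log2 value of at least 6, which was chosen after seeing the data. The t-test at an unadjusted p under 0.05 called 1 with Gpc4, the Gria4 probe set 1396696_at (log2 fold change -0.125). Its Gpc4 arrays were equal after rounding. The share of all probe sets that this t-test calls was not counted. After Benjamini-Hochberg the t-test called 0. For the auxiliary list the replicate block gave 2 calls of 16 with Gpc4, against 0 without it. Of all probe sets 0.206% were called with the block and 0.0838% without it. Between Gpc4 and TSP1 the block gave 2 of 16, against 1 without it, where 0.258% and 0.0612% of all were called. Of 348 log2 fold changes recomputed, 18 had the opposite sign, all with 1 array left out. Of these alternatives, only median centring, quantile normalization and leaving out an array of a compared group can alter a fold change. The rest keep the group means, so their signs were fixed beforehand. The total of 348 therefore overstates how stable the signs are. With Gpc4 the values ran from -0.07 to 0.10 for Gria1, -0.295 to 0.155 for Gria3 1368691_at and -0.14 to 0.17 for Gria4 1383707_at. With TSP1 they ran from -0.135 to 0.045 for Gria1, -0.145 to 0.055 for Gria3 1376892_at, -0.005 to 0.245 for Gria3 1368691_at, -0.065 to 0.245 for Gria4 1383707_at and -0.135 to 0.035 for Gria4 1369384_at. Between Gpc4 and TSP1 they ran from -0.03 to 0.15 for Gria1, -0.105 to 0.015 for Gria2 1387171_at, -0.17 to 0.02 for Gria3 1376892_at and -0.415 to 0.035 for Gria3 1368691_at. With Gpc4 the values ran from -0.35 to -0.15 for Gria2 1368401_at and from -0.255 to -0.075 for Gria2 1387171_at. They ran from -0.22 to -0.02 for Gria3 1376892_at, -0.13 to -0.12 for Gria4 1396696_at and -0.455 to -0.305 for Gria4 1369384_at. Where the arrays of 2 groups do not overlap, as for both Gria2 probe sets, leaving out 1 array cannot change the sign. Between Gpc4 and TSP1 the brighter Gria2 probe set ran from -0.26 to -0.06. The change of Gria2 minus Gria4 between Gpc4 and TSP1 was -0.085 with the brightest probe sets and 0.1575 with means over probe sets of at least 6, neither past its threshold. The cause of these shifts was not tested.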
